A study of Mus musculus with 2 samples.

Results

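Histones package DNA into nucleosomes, and 70 histone genes were examined among the 15574 genes listed in RNA sequencing of mouse T helper 17 (Th17) cells. They were taken by symbol alone, as every listed gene that starts with Hist1h to Hist4h, H1f, H2af or H3f; a gene is listed where at least 1 library gave it a read. Of these, 58 carry Hist symbols and are called replication-dependent here, and 12 carry H1f, H2af or H3f symbols and are called variant. Hist3h2bb-ps and H2afy3 are counted among them, though the annotation used here (GENCODE M21) gives both as processed pseudogenes. By type, 9 are linker (H1) genes and 61 are core (H2A, H2B, H3 or H4) genes. The data are 1 library from cells whose genotype is labelled CREB KO and 1 library from wildtype cells. CREB is the product of Creb1, a transcription factor switched on by cyclic AMP signalling, and the study set out to find the genes it regulates in these cells. Both libraries came from naive T cells of C57BL/6 background that were cultured for 6 days with IL-23, IL-1 beta, TGF-beta and IL-6 and then stimulated on plate-bound anti-CD3 antibody for 4 h. The sources used here do not give how or in which cells Creb1 was deleted, or how many mice were pooled.

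Each comparison below is between 2 libraries, with no replicate and therefore no p-value. Ratios are those of the library labelled KO over the wildtype library after scaling for library size. Their 95% intervals (exact conditional binomial) cover counting error only, and no molecular identifiers are named that would mark PCR copies, so reads need not be independent molecules. A gene counts as measured at a mean of 1 CPM (scaled reads in every 1000000) over both libraries; the 10462 measured genes held 23905647 reads in the library labelled KO and 26492343 in the wildtype library. Creb1 had 25 reads in the library labelled KO, against 13 in the wildtype library, so the count of the targeted gene does not bear the label out. Il17f, a signature Th17 cytokine gene, had 13041 reads in the library labelled KO, against 39898 in the wildtype library. Of 11 Th17 and T cell markers, 10 were measured. Of 17 markers of other cells, 4 did (Gata3, Cd8b1, Cd79a and Epcam), with 591 reads in all in the library labelled KO and 624 in the wildtype library, while Cd8a, Ms4a1, Lyz2, Itgam, Ncr1, Klrb1c and Hbb-bs were listed in neither.

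Replication-dependent histone genes supply the histones that wrap newly made DNA, and dividing cells transcribe them in S phase. Their messenger RNAs are the known exception to polyadenylation in animals: most end in a short stem-loop that the stem-loop binding protein SLBP holds during processing, export and translation. Variant genes such as those for H3.3, H2A.Z and H1.0 make ordinary polyadenylated messenger RNAs throughout the cell cycle, and their proteins replace the S phase histones in existing chromatin. Linker histones bind the DNA where it enters and leaves the nucleosome and compact the fibre, whereas core histones form the particle itself. The libraries were made from RNA enriched for messenger RNA on magnetic beads, so transcripts with no poly(A) tail can be captured poorly.

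The stem-loop was searched for in the GENCODE M21 transcript models (mouse build GRCm38), on the transcript strand, as the letters GGNNC, then TTTTNA, then GNNCC without a gap. They were present in models of 39 of 58 replication-dependent genes, of 1 of 12 variant genes (H2afx), and of 20 of 13770 other protein-coding genes (0.145%). A model without these letters may simply stop short of them or hold a divergent stem-loop. The polyadenylation signal AATAAA was searched for in the last 60 bases of models. It was present for 10 of 12 variant genes and 12 of 58 replication-dependent genes, against 60.9% of the other protein-coding genes. In both searches a histone gene could match in any of its models, but another gene only in its longest. The shares of histone genes and other genes are therefore not strictly alike. The sites of linker genes, of the replication-dependent core gene with most reads, of the H4 gene with most reads and of H2afx are shown with capitals marking the matched stretch, of which the search itself fixed all letters but the N positions.
Hist1h1c: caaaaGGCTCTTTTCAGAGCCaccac
Hist1h1d: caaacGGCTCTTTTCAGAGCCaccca
Hist1h1e: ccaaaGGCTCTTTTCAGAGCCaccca
Hist1h2ao: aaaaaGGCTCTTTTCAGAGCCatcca
Hist1h4i: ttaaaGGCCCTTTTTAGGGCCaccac
H2afx: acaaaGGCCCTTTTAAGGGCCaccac
The form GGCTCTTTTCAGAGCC was the most frequent, in 22 of the genes with a match. Hist1h4i and H2afx have changes on both arms of the stem that keep the arms complementary. The H2afx model runs on for 822 bases after its stem-loop, and H2afx, the source of the DNA damage histone H2A.X, is known to make transcripts of both kinds.

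Some linker gene promoters hold an element known as the H1 box. Its letters AAACACA, searched on both strands of the RefSeq promoters (250 bases before to 50 after the start, GRCm38.p6), were found for 5 of 9 linker genes and 3 of 53 core genes (Hist1h2ab, Hist1h2bm and H3f3a), against 8.22% of 27025 genes with a promoter. H1f0, H1fx, H1foo and Hist1h1a were the linker genes without them. In each of the 5 linker promoters it lay 105 to 115 bases before the start site, and 4 of them passed the level filter and are printed with the box in capitals.
Hist1h1c, chr13:23738683-23738713, plus strand: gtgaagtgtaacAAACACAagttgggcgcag
Hist1h1b, chr13:21780724-21780754, minus strand: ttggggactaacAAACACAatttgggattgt
Hist1h1d, chr13:23554898-23554928, plus strand: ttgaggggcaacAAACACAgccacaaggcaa
Hist1h1e, chr13:23622655-23622685, minus strand: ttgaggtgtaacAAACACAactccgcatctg
The other, Hist1h1t, encodes the testis linker histone and had 0 reads in the library labelled KO and 4 in the wildtype library.

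The full cAMP response element TGACGTCA, the palindrome that CREB binds, was found by letters in promoters of 4 of the 62 histone genes with a matched promoter (6.45%), against 2.03% of all genes with a promoter. None of the 9 linker genes and none of the 10 variant genes with a promoter held it. Hist1h2ag and its divergent neighbour Hist1h2bj share a single copy, Hist1h4a holds a pair of copies and Hist1h4h holds a single one, which are printed with the element in capitals.
Hist1h2ag, chr13:22043090-22043121, minus strand: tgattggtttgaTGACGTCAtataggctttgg
Hist1h4a, nearer copy, chr13:23761264-23761295, minus strand: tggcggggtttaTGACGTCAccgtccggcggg
Hist1h4a, farther copy, chr13:23761328-23761359, minus strand: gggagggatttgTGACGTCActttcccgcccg
Hist1h4h, chr13:23530962-23530993, plus strand: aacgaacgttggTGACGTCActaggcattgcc
All 4 genes had few reads. Hist1h2ag had 52 reads in the library labelled KO, against 53 in the wildtype library, Hist1h2bj 11 against 14, Hist1h4a 30 against 20 and Hist1h4h 43 against 37. The ratios of these 4 genes were 1.08, 0.871, 1.64 and 1.28, in that order, and every interval held 1. The shorter part of the element, TGACG, was found for 24 of the 62 genes (38.7%), against 23.0% of all genes with a promoter. It was found for 1 of 9 linker and 23 of 53 core genes, and for 3 of the 10 variant genes. A letter match is not evidence of binding, and no CREB binding was measured here.

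Most histone reads came from variant genes. Of the 70 genes, 36 were measured (27 replication-dependent and 9 variant); they held 99.6% of histone reads in each library. The 9 variant genes summed to 67253 reads in the library labelled KO and 74602 in the wildtype library. The 27 replication-dependent genes summed to 3499 reads in the library labelled KO and 3177 in the wildtype library, which is 4.95% and 4.08% of the measured histone reads. On the scaled level, the replication-dependent sum was 146 CPM in the library labelled KO and 120.1 CPM in the wildtype library. Since the libraries were enriched for messenger RNA, these levels cannot be read as amounts in the cell.

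**Figure D1:**
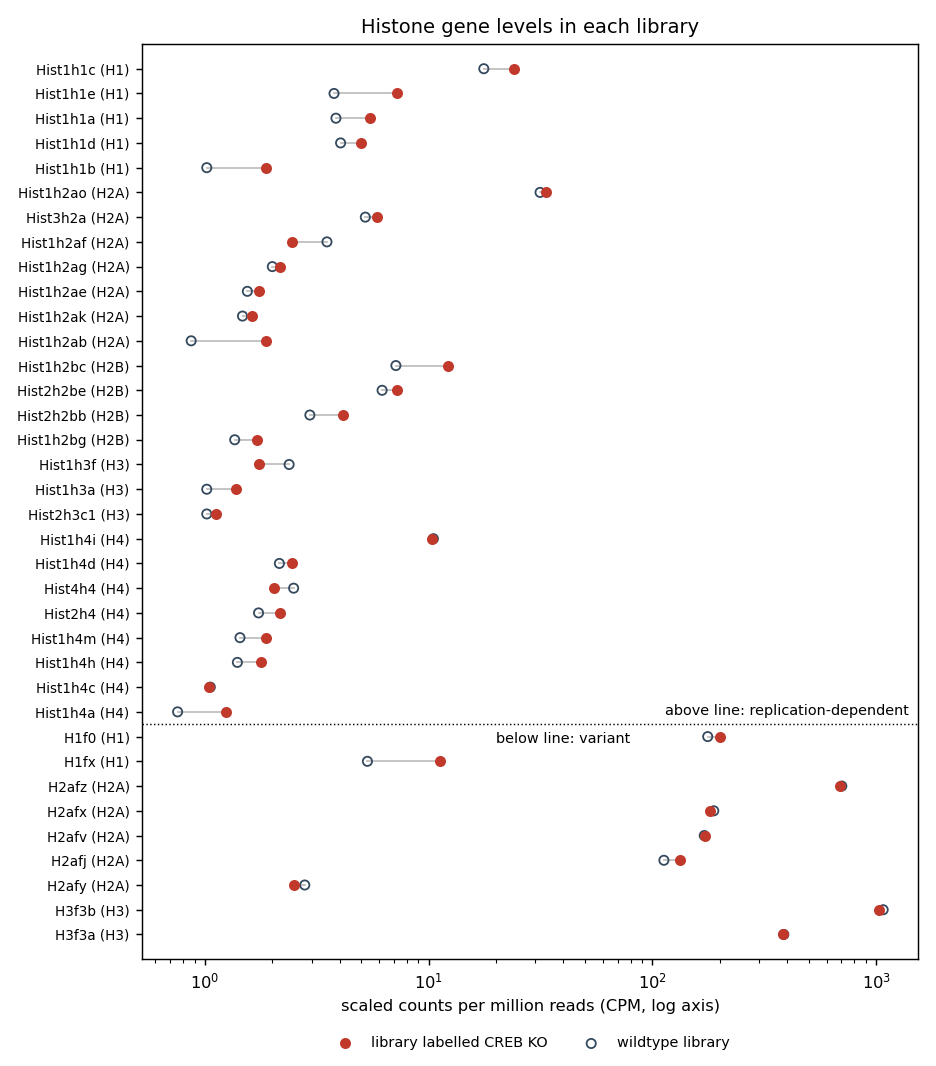
Scaled CPM (log axis) of the 36 measured histone genes in the library labelled CREB KO (filled red) and the wildtype library (open), replication-dependent genes above the dotted line and variant genes below it. Apart from H1fx and H2afy, the variant genes lie above 100 CPM in both libraries, and every replication-dependent gene lies below 40 CPM.

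Levels of different genes were compared as scaled CPM per kilobase of annotated exon. The H3.3 gene H3f3b stood at 346 in the library labelled KO and 361 in the wildtype library, and its partner H3f3a, which encodes the same protein, at 109.9 and 110.3. The major H2A.Z gene H2afz stood at 387 in the library labelled KO and 395 in the wildtype library, and H2afv, the gene of the second H2A.Z form, at 106 and 104. H2afx stood at 130.3 and 136 per kilobase, and H1f0, which encodes the linker variant H1.0, at 98.1 and 86.0. Among replication-dependent genes Hist1h2ao was highest, at 70.05 in the library labelled KO and 65.6 in the wildtype library. Next in this class were Hist1h4i, at 14.3 and 14.5 per kilobase, and Hist1h1c, at 15.5 and 11.3, whose order is not the same in the 2 libraries. By mean level per kilobase, the highest variant exceeded the highest replication-dependent gene of its type 6.86-fold for H1, 5.77-fold for H2A and 158-fold for H3. The value of Hist1h2ao is uncertain, since only 6.50% of the 50-base words in its model occur in no transcript of another gene.

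Genes with Hist symbols summed slightly higher in the library labelled KO, and genes with variant symbols were level. The summed ratio was 1.21 for replication-dependent genes (1.16 to 1.27) and 0.994 for variant genes (0.983 to 1.004). Relative to the variant genes, the replication-dependent sum was 1.22-fold higher in the library labelled KO (1.16 to 1.28). These values depend on how the classes are drawn. The 8 measured Hist genes without stem-loop letters are Hist1h1a, Hist1h1b, Hist1h2af, Hist1h2ak, Hist1h2bc, Hist2h2bb, Hist2h2be and Hist1h4a (summed ratio 1.35). Classes by stem-loop letters move these out and move H2afx to the first class. The summed ratio was then 1.03 (0.997 to 1.06) and that relative to the other genes 1.03 (0.996 to 1.07), so both intervals held 1. Moving H2afx alone gave 1.06 for both values. Of the 27 replication-dependent genes, 22 had a ratio above 1 and 5 below, against 48.1% above 1 among all 10462 measured genes. Their median log2 ratio was 0.30, against -0.0059 for the variant genes and -0.0076 for all measured genes. A gene was called higher or lower if its ratio reached 1.5-fold and its interval excluded 1. By this rule 4 replication-dependent genes and 1 variant gene were higher and none of either class was lower, while 2.48% of all measured genes were called higher and 1.5% lower. Calls are commoner at low counts: among the 4425 measured genes with fewer than 1000 reads in both libraries together, 5.63% were called higher and 3.37% lower. Intervals excluded 1 for many genes of the table (16.2% above and 19.5% below), so such an interval alone does not set a gene apart.

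All 7 measured linker histone genes had more scaled reads in the library labelled KO, as did all 4 measured H2B genes. The linker genes summed to 6159 reads in the library labelled KO and 5619 in the wildtype library, a ratio of 1.21 (1.17 to 1.25), against 0.987 (0.976 to 0.997) for the 29 core genes, with 64593 and 72160 reads. Relative to the core genes, the linker sum was 1.22-fold higher in the library labelled KO (1.18 to 1.27). The interval lay above 1 for 6 of 7 linker genes, against 16.2% of all measured genes, and 3 were called higher, against 2.48%. The linker median log2 ratio was 0.51 and the core median 0.14. H1f0 alone gave 78.6% of linker reads in the library labelled KO and 83.2% in the wildtype library, and without it the linker ratio was 1.54 (1.42 to 1.68). The core ratio turned to 1.01 (0.993 to 1.02) without H3f3b, the core gene with most reads. With scaling by total counts its interval also held 1 (0.992, 0.981 to 1.002).

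H1fx encodes the linker variant H1.10 and lies on chromosome 6 (87980421 to 87981637, GRCm38). It had 270 reads in the library labelled KO, against 141 in the wildtype library. Its ratio of 2.11 (1.72 to 2.61) was the highest among linker genes, while 0.669% of all measured genes were at least 2-fold higher with an interval above 1 and 0.44% at least 2-fold lower. The models of H1fx and H1f0 overlap unnamed gene models, and the strand setting of the counting is not known. H1f0, the linker variant known to accumulate in quiescent and differentiated cells, had 4838 reads in the library labelled KO, against 4675 in the wildtype library, a ratio of 1.14 (1.10 to 1.19). Both polyadenylated linker genes were thus higher in scaled reads, and their intervals do not overlap.

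The 5 measured replication-dependent linker genes encode the somatic H1 subtypes and had 1051 reads in the library labelled KO, against 803 in the wildtype library, a ratio of 1.44 (1.31 to 1.58). Hist1h1c, the gene of subtype H1.2, gave most of them, with 581 against 467 reads, with a ratio of 1.37 (1.21 to 1.55). Hist1h1e (H1.4) had 173 reads in the library labelled KO, against 100 in the wildtype library, a ratio of 1.90 (1.48 to 2.46). Hist1h1b (H1.5) had 45 against 27 reads, with a ratio of 1.82 (1.12 to 3.08), which makes it the third linker gene called higher beside H1fx and Hist1h1e. Hist1h1a (H1.1) had 132 against 102 reads, with a ratio of 1.42 (1.09 to 1.87). Only Hist1h1d (H1.3), with 120 against 107 reads, had an interval that held 1 (ratio 1.23, 0.945 to 1.62). The annotated model of Hist1h1e overlaps that of the H2B gene Hist1h2be, which was listed in neither library, so reads of the pair cannot be told apart. Without Hist1h1e the ratio of the other 4 was 1.38.

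**Figure D2:**
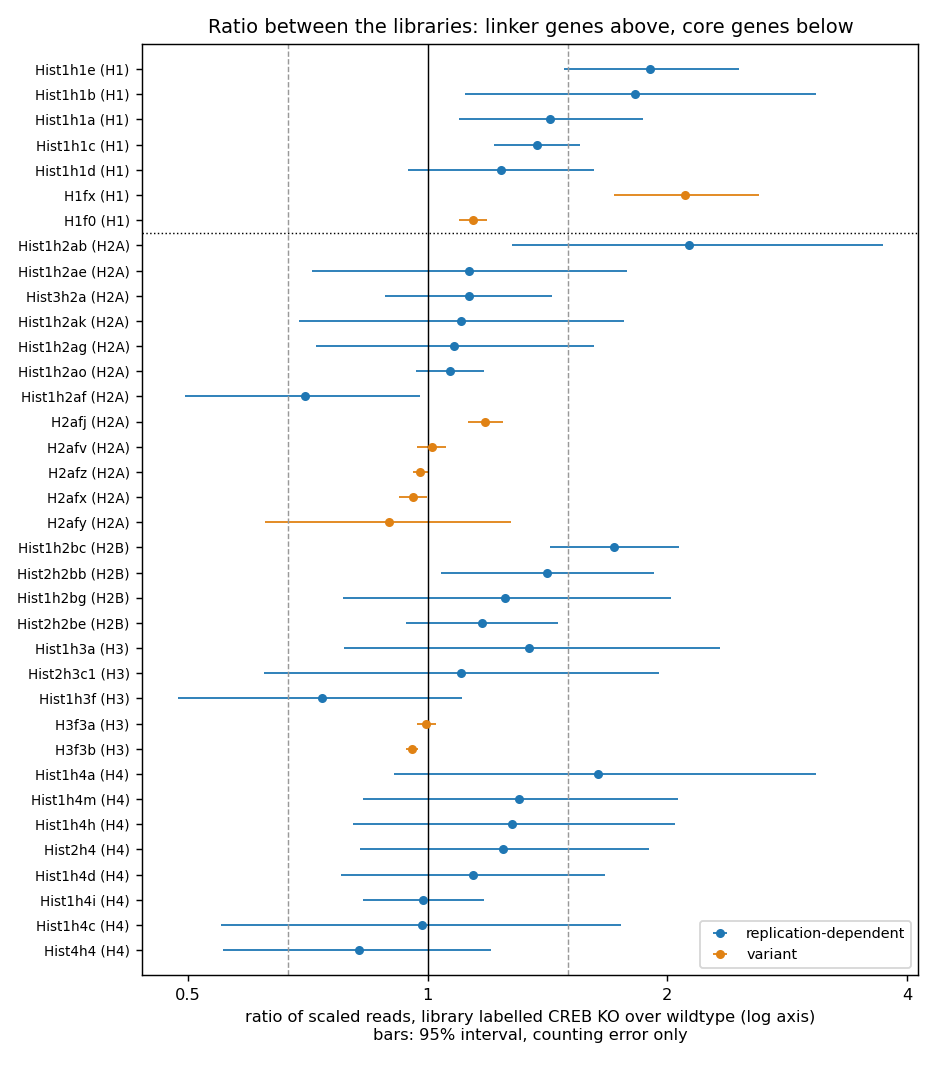
Ratio of scaled reads in the library labelled CREB KO over the wildtype library (log axis) for the 36 measured genes, replication-dependent in blue and variant in orange, linker genes above the dotted line and core genes below; bars are 95% counting intervals, dashed lines mark 1.5-fold either way. All 7 linker genes lie to the right of 1, while core genes lie on both sides.

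Core genes of the replication-dependent class had 2448 reads in the library labelled KO, against 2374 in the wildtype library, a ratio of 1.14 (1.07 to 1.20). This ratio turned to 0.991 (0.957 to 1.03) with classes drawn by stem-loop letters, and its interval held 1 with H2afx added (1.02, 0.983 to 1.05) and at a mean of 10 CPM or more (1.05, 0.962 to 1.14). Within the class, the linker sum was 1.27-fold higher relative to the core sum in the library labelled KO (1.14 to 1.42). This gap was not shared by all core types. The 4 H2B genes had 609 against 467 reads, with a ratio of 1.44 (1.27 to 1.62), and relative to them the linker sum was level (1.004, 0.860 to 1.17). Of these H2B genes only Hist1h2bg, with 41 against 36 reads, has the stem-loop letters in its model. The 7 H2A genes had 1185 against 1220 reads (ratio 1.07, 0.987 to 1.16), the 8 H4 genes 552 against 570 (1.07, 0.948 to 1.20), and the 3 H3 genes 102 against 117 (0.961, 0.729 to 1.26). These last 3 intervals hold 1, so no direction is given for them.

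**Figure D3:**
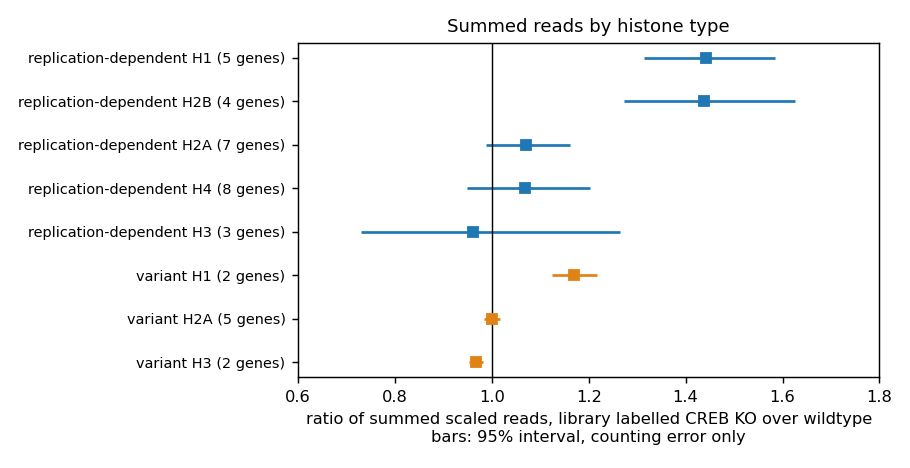
Ratio of summed scaled reads, library labelled CREB KO over wildtype, for each histone type in the replication-dependent (blue) and variant (orange) class, with 95% counting intervals. H1 and H2B of the replication-dependent class and the variant H1 pair lie above 1 with their intervals, and variant H3 lies below.

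Among H2B genes, Hist1h2bc (chromosome 13, 23684199 to 23692908) had 294 reads in the library labelled KO, against 189 in the wildtype library, a ratio of 1.71 (1.42 to 2.07), and was called higher. It held 294 of the 609 H2B reads in the library labelled KO and 189 of the 467 in the wildtype library. Hist2h2bb had 100 against 78 reads (ratio 1.41, 1.04 to 1.93), but none of its 50-base words is its own. Its model overlaps unnamed gene models, so shared words can come from the same locus. The ratios of Hist2h2be and Hist1h2bg were 1.17 and 1.25 with intervals that held 1. H2B genes below 1 CPM lay on both sides of a ratio of 1, and all their intervals held 1. Hist1h2bb, for example, had 24 reads in the library labelled KO, against 20 in the wildtype library, and Hist1h2bm 9 against 22. The higher ratios thus hold for the measured H2B genes only.

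Among H2A genes, Hist1h2ab had 45 reads in the library labelled KO, against 23 in the wildtype library, a ratio of 2.13 (1.28 to 3.73), and was the other core gene called higher. Hist1h2ao had 807 against 833 reads, with a ratio of 1.07 (0.968 to 1.18); it held 23.1% of replication-dependent reads in the library labelled KO and 26.2% in the wildtype library. Hist1h2af went the other way, with 59 against 93 reads, with a ratio of 0.701 (0.496 to 0.979), short of the 1.5-fold rule. Only 42.0% of the words of Hist1h2ab and 6.00% of those of Hist1h2af are unique, so reads of near-identical copies may have been lost or misplaced. Both models also overlap unnamed gene models, so part of the shared words can come from the same locus. The intervals of Hist3h2a, Hist1h2ag, Hist1h2ae and Hist1h2ak all held 1, with ratios of 1.08 to 1.13.

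The measured replication-dependent H3 and H4 genes showed no ratio whose interval excluded 1. Hist1h3f had the most reads of these H3 genes, 42 in the library labelled KO and 63 in the wildtype library (ratio 0.737, 0.485 to 1.10). Hist1h3a had 33 against 27 (1.34, 0.786 to 2.33) and Hist2h3c1 had 27 in each. Hist1h4i, the H4 gene with most reads, had 249 against 278 and a ratio of 0.987 (0.829 to 1.18). The other 7 H4 genes (Hist1h4a, Hist1h4c, Hist1h4d, Hist1h4h, Hist1h4m, Hist2h4 and Hist4h4) had 20 to 66 reads per library and ratios of 0.820 to 1.64.

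The variant core genes lay close to 1, with H2afj apart from the rest. The H3.3 pair had 33922 reads in the library labelled KO, against 38664 in the wildtype library, a ratio of 0.967 (0.953 to 0.981). H3f3b had 24680 against 28436 reads (ratio 0.957, 0.940 to 0.973) and H3f3a 9242 against 10228 (0.996, 0.968 to 1.02), and H3f3b made 72.8% of the pair in the library labelled KO and 73.5% in the wildtype library. The H2A.Z pair had 20641 against 23093 reads (ratio 0.985, 0.967 to 1.004), with H2afz at 16501 against 18580 and H2afv at 4140 against 4513. H2afx had 4330 against 4976 reads, with a ratio of 0.959 (0.921 to 0.999), though its interval held 1 with scaling by total counts (0.926 to 1.005). H2afj, which encodes the H2A variant H2A.J, had 3192 reads in the library labelled KO, against 2979 in the wildtype library, a ratio of 1.18 (1.12 to 1.24). Among the 6037 genes with 1000 or more reads in both libraries together, 19.0% had an interval above 1 and 26.1% below, so neither direction is uncommon at this depth. H2afy, the macroH2A1 gene, had only 60 against 74 reads (ratio 0.894, 0.625 to 1.27).

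A further 34 listed histone genes stayed below a mean of 1 CPM, 31 replication-dependent and 3 variant (H1foo, H2afy2 and the pseudogene H2afy3). None had more than 29 reads in a library. Their sums were 297 reads in the library labelled KO and 302 in the wildtype library, a ratio of 1.08 (0.920 to 1.28). The interval held 1 for 32 of them; the exceptions were Hist1h2ac, with 29 against 15 reads (ratio 2.09, 1.11 to 4.28), and Hist2h2ab, with 5 against 0. Another 21 genes that GENCODE names under the same symbols, among them Hist1h2ap and Hist2h2aa1, were listed in neither library. Of the replication-dependent genes, 45 lie between bases 21715763 and 23764406 of chromosome 13, 9 on chromosome 3, 3 on chromosome 11 and 1 on chromosome 6.

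Ratios were also set against how far each model shares its sequence with other genes. Of the 22 measured replication-dependent core genes, the 14 with at least 50% of their words unique had a summed ratio of 1.18 (1.09 to 1.28) and the other 8 one of 1.09 (1.01 to 1.19). All 7 measured linker genes had 68.0% to 100% unique words. The 13 replication-dependent genes whose models run more than 100 bases past the stem-loop, as an extended polyadenylated transcript would, had a summed ratio of 1.21 (1.13 to 1.30). The 6 whose models end within 100 bases of it had one of 1.12 (1.02 to 1.22), and the 8 with no matching letters one of 1.35 (1.22 to 1.49).

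Base composition moved with the ratio across the whole table. Over 10 equal bins of transcript GC content, the median log2 ratio of all matched genes was -0.079 in the lowest bin and 0.047 in the highest bin, and the share called higher was 1.21% and 5.43% in those bins. Transcripts were matched for 9937 of 10462 measured genes and for all 36 histone genes. H1fx, at 71.3% GC, had the highest GC content of all matched genes, whereas Hist1h1d had 39.8% and Hist1h2bc 45.9%. The Hist1h1d value rests on a model of 7425 bases, 4884 of them after the stem-loop, so it need not describe the transcript counted. After subtracting the median of its GC bin, the ratio was 2.04 for H1fx, 1.90 for Hist1h1e, 1.76 for Hist1h2bc and 1.30 for Hist1h1d, and the linker median log2 ratio was 0.50. The same step moved H3f3b to 0.998 and H3f3a to 1.04, so the lower ratio of H3f3b depends on it. The part of base composition in the other ratios was not tested further.

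**Figure D4:**
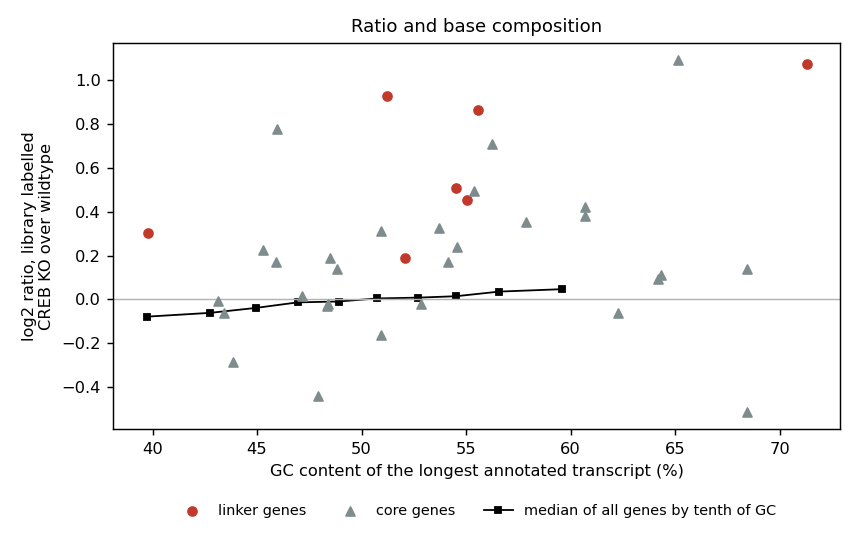
log2 ratio of the library labelled CREB KO over wildtype against GC content of the longest annotated transcript for linker genes (circles) and core genes (triangles), with the median of all measured genes in each of 10 GC bins (squares). The medians run between -0.079 in the lowest bin and 0.047 in the highest, and the 7 linker genes all lie above them.

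Some RNAs other than histone transcripts can also lack a conventional poly(A) tail. Of 11 such RNAs looked up, 5 were listed and 4 were measured. Of the measured ones 2, Rpph1 and Rmrp, were called higher, against 2.48% of all measured genes. Rpph1, the RNA of RNase P, had 310 reads in the library labelled KO, against 36 in the wildtype library, a ratio of 9.37 (6.71 to 13.8). Rmrp, the RNA of RNase MRP, had 169 against 25 reads, with a ratio of 7.32 (4.88 to 11.8). Malat1, a nuclear RNA whose end is protected by a triple helix, had 16170 against 12640 reads (1.41, 1.38 to 1.44), and Neat1, which also has a short polyadenylated form, 10125 against 10408 (1.07, 1.04 to 1.10); neither reached 1.5-fold. Whether capture of such RNAs differed between the libraries, and its part in the histone ratios, was not tested.

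Genes that act on histone transcripts had a median near that of all measured genes. Of 21 listed genes for the processing of histone transcript ends, 20 were measured, with a median log2 ratio of -0.038, 1 called higher and 19 neither. Among all measured genes, 2.48% were called higher and 1.5% lower. Slbp had 5228 reads in the library labelled KO, against 6031 in the wildtype library (ratio 0.955, 0.921 to 0.992), and Eri1, the exonuclease that trims the stem-loop end, had 3114 against 3538 (0.970, 0.924 to 1.02). Npat, the coactivator of histone gene transcription, had 1318 against 1697 reads (0.856, 0.796 to 0.920), and the cleavage factor gene Cstf2 2292 against 2836 (0.891, 0.843 to 0.942). Snrpf, a core protein of small nuclear RNPs, had 9207 against 8844 reads (1.15, 1.11 to 1.18), and the scaffold gene Sympk 6002 against 6089 (1.09, 1.05 to 1.13). Upf1, a helicase that takes part in histone transcript decay, was called higher on 91 against 64 reads (1.56, 1.13 to 2.19). Among measured genes with fewer than 1000 reads in both libraries together, 5.63% were called higher.

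Of 9 measured genes for histone gene transcription, none was called either way, against 2.48% of all measured genes called higher and 1.5% lower. The median log2 ratio of the 9 was 0.0051. E2f1 had a ratio of 0.907 (0.859 to 0.957) and E2f2 of 1.05 (1.01 to 1.09), with Cdk2 at 1.03. Of 33 measured histone chaperone genes, 32 were called neither way, and the median of the 33 was -0.046. Daxx, the chaperone of H3.3 at repeats, was called higher on 38 against 22 reads (1.88, 1.10 to 3.38). Among measured genes with fewer than 1000 reads in both libraries together, 5.63% were called higher. Anp32b and the acetyltransferase gene Hat1 had the lowest ratios among well-counted chaperones, 0.855 (0.839 to 0.872) and 0.859 (0.817 to 0.903), and Znhit1 and Ubn1 the highest, 1.13 (1.06 to 1.20) and 1.11 (1.06 to 1.15). Cenpa, the centromeric H3 variant that the symbol rule leaves out, had 4000 reads in the library labelled KO, against 4568 in the wildtype library (0.965, 0.925 to 1.01).

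S phase genes leaned the other way from replication-dependent histone genes. Of 29 measured S phase and replication genes, 25 lay below a ratio of 1 and 4 above it, against 48.1% above 1 among all measured genes. The interval was below 1 for 18 of them and above 1 for 2, against 19.5% and 16.2% of all measured genes. Among genes with 1000 or more reads in both libraries together, as most of the 29 had, these shares were 26.1% and 19.0%. The median log2 ratio of the 29 was -0.093, and the median of the GC bin was not subtracted for them. None of the 29 was called at 1.5-fold, against 2.48% of all measured genes called higher and 1.5% lower. Mcm3, a helicase subunit, had 13310 reads in the library labelled KO, against 17612 in the wildtype library (0.833, 0.814 to 0.852), and the cyclin gene Ccna2 10802 against 13872 (0.858, 0.837 to 0.880). The licensing gene Cdt1 had a ratio of 1.05 (1.004 to 1.10) and Dut one of 1.05 (0.927 to 1.19). In bulk samples such as these, fewer cells in S phase and less RNA per cell cannot be told apart. The lists share Npat, Casp8ap2, Slbp and Mcm2.

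**Figure D5:**
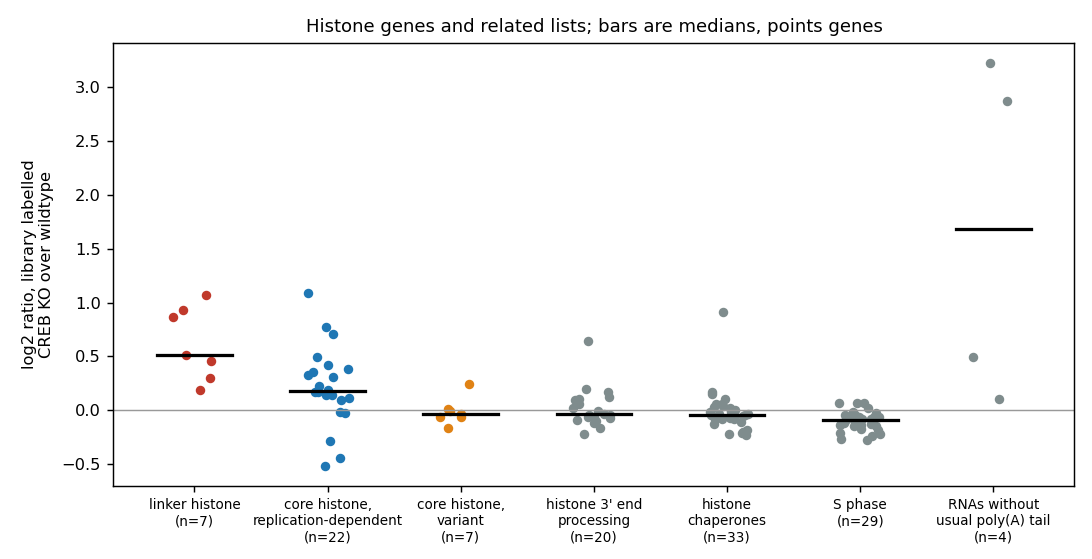
log2 ratio of the library labelled CREB KO over wildtype for each measured gene (points) of the linker, replication-dependent core and variant core histone genes and of 4 related lists, with medians as bars. The linker median of 0.51 and the S phase median of -0.093 lie on opposite sides of 0, and Rpph1 and Rmrp lie far above the other points.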

How the data were processed

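Each deposited table lists gene symbols with raw read counts, which the file headers call unique reads; the authors applied no scaling to them. HTSeq, bcl2fastq and build mm10 are named in the submitters' processing notes, while the aligner, the annotation and any strand setting were not stated in the sources used here. A gene listed in 1 library only was taken as 0 in the other. Libraries were scaled by trimmed mean of M-values with edgeR 4.0.16 (R 4.3.3), and ratios used a prior count of 0.5. With 1 library per group edgeR's quasi-likelihood test could not be fitted. The filter for measured genes was a mean CPM of at least 1. Levels per kilobase used the union of exons in GENCODE M21. Sequences come from GENCODE M21 transcripts and RefSeq promoters (62 of 70 genes matched by Ensembl ID, symbol or synonym). Python 3.11.15, numpy 2.4.6, scipy 1.17.1, pandas 2.3.3 and matplotlib 3.10.9 were used, and the steps were tested on simulated counts. Alternatives were other scalings (total counts, DESeq2 1.42.0 size factors, upper quartiles), filters, a prior count of 5, thinning, unique words, classes by stem-loop or with H2afx moved, and leaving out genes. The members, lists and named genes were chosen with earlier results of these data known. Named were all measured members, and, in other lists, genes past 1.5-fold, the extreme ratios among genes of 10 CPM or more, and a fixed few.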

Additional observations from a re-analysis of the deposited data

How the results depend on the processing

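Over 384 class values and 261 member values recomputed under alternatives, 347 and 259 stayed within their main interval or, for counts, within 1.5 times, and 2 turned direction. Part of these values could not change, so the counts overstate how far the results were tried. Ratios between classes do not depend on scaling or prior count, summed ratios not on the prior count, and member ratios not on the filter. Scaling by total counts, size factors or upper quartiles, a prior count of 5 and thinning moved no class value past these limits. Under total counts, however, the interval of the core ratio held 1 (0.992, 0.981 to 1.002). The intervals of H2afx and H2afz, below 1 in the main scaling, held 1 under total counts and under upper quartiles. Subtracting the median of the GC bin was applied to class medians and member ratios only. Summed ratios, calls and class contrasts were not recomputed with it. No class median passed its limits, but these are medians of the member limits and therefore wide. Among members, the GC step moved H3f3a to 1.04 and H3f3b to 0.998. Restricting genes to a mean of 10 CPM, which leaves few genes, gave summed ratios of 1.14 for replication-dependent, 1.16 for linker and 1.05 for replication-dependent core genes and a class ratio of 1.15, and 0 genes called in each class. Without a filter 4 core genes, all replication-dependent, were called higher. With genes of mostly unique words the replication-dependent ratio was 1.29, its ratio to variant genes 1.29, and 1 core gene was called.

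Classes drawn by stem-loop letters put H2afx with the replication-dependent genes and the Hist genes without the letters with the others. The summed ratio was then 1.03 (0.997 to 1.06), that of the core part turned to 0.991 (0.957 to 1.03), the ratio to the other genes was 1.03 (0.996 to 1.07) and that of linker to core 1.44; 2 stem-loop genes (1 linker, 1 core) and 3 others were called, and the median of the others was 0.21. Moving H2afx alone gave 1.06, 1.02, 1.06 and 1.42 for the same 4 ratios. Without the member with most reads the variant ratio was 1.02, the linker ratio 1.54 and its ratio to core 1.53, and the core ratio turned to 1.01 (0.993 to 1.02). In alternatives chosen after seeing the data, leaving out Hist1h1e left 1 replication-dependent linker gene called, leaving out H1fx left 0 variant genes, and leaving out Hist1h2bc and Hist1h2ao left 1 core gene. No paired analysis was possible because there was 1 library per group. Low counts limit most replication-dependent genes.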
